A study of Mus musculus and blank sample with 91 samples.

Results

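Fecal bacteria of 6 mice with experimental autoimmune encephalomyelitis (EAE) and 6 naïve mice were compared on day 19 after immunization (19 dpi), which the study treats as the peak of the disease. The samples were taken by their labels and make up 12 of the 88 samples of the series that hold counts, out of 89 in the count table and 91 in the labels. All mice were female C57BL/6 by the labels (C57BL/6J in the study's methods), bought at 8 weeks of age, and their age at sampling was not given. Naïve mice were left untreated. EAE mice received 50 µg of the myelin oligodendrocyte glycoprotein peptide MOG35–55 under the skin in Complete Freund's Adjuvant (CFA), and 250 ng of pertussis toxin into the peritoneum on days 0 and 2. The groups therefore differ in peptide, adjuvant and toxin, and the parts of these agents cannot be told apart in this comparison. Another group received the adjuvant, with neither peptide nor toxin recorded for it, so it does not set the peptide apart from the toxin. Its values at 19 dpi are given only beside a few taxa. Mice lived 2 to 3 to a cage with the treatment assigned by cage, and the labels do not name the cages, so the p-values treat cage mates as independent mice.

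EAE models multiple sclerosis. T cells primed against a myelin protein enter the central nervous system, and paralysis ascends from the tail to the limbs. Gut bacteria are known to shape the T cells that take part in this disease, through products such as lactic acid, short-chain fatty acids and bile acid derivatives. In sequencing of the bacterial 16S rRNA gene, an amplicon sequence variant (ASV) is a distinct error-corrected read sequence, and its relative abundance is its share of a sample's reads. A share cannot tell more cells of a taxon from fewer cells of the others.

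EAE mice were lighter than naïve mice, and 5 of 6 had a clinical score above 0, which rises with the extent of paralysis. Body weights were 15.6 g, 16.1 g, 15 g, 15.2 g, 15.5 g and 16.7 g in EAE mice 588, 589, 591, 593, 594 and 595. Naïve mice 558 to 563 weighed between 18.1 g and 19.5 g. No weight of the EAE group reached the naïve range, and the means were 15.7 ± 0.62 g and 18.9 ± 0.62 g (SD, n = 6 each; two-sided exact permutation test, p = 0.00216, the smallest that 6 against 6 mice allow). Day 19 was chosen as the day of greatest weight loss, so the tests of weight are context and no independent evidence of a loss. Clinical scores were 2, 2, 0, 4, 4 and 3.5 in the same order of EAE mice and 0 in every naïve mouse (exact permutation test, p = 0.0152, n = 6 each). Mouse 591 was thus the lightest of all while its score was 0. Since 14 dpi, weight had changed by -3.3 g, 1.6 g, -4.4 g, -4 g and 0.9 g in mice 588, 589, 591, 593 and 595, and mouse 594 was not sampled at that day. The 2 mice that gained had the highest scores at 14 dpi, 3 and 3.5, against 1, 0 and 0 in the 3 that lost. The mean change was -1.84 ± 2.86 g (SD, n = 5) in EAE mice and 0.45 ± 0.62 g (SD, n = 6) in naïve mice, and the difference did not pass the test (exact permutation test, p = 0.119). The difference passed the test without mouse 589 (p = 0.0238) and without mouse 595 (p = 0.0429, exact permutation tests), the 2 mice that gained. It passed without no other single mouse (p up to 0.210, exact permutation tests).

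Samples of EAE mice held 15279 to 93736 counts in 25 to 139 ASVs, and those of naïve mice 63302 to 95100 counts in 79 to 123 ASVs. Mouse 595 stood apart with the lowest count and 25 ASVs, against 73 to 139 in the other EAE mice. By counting error alone (3 counts of the total), a count of 0 allows a share of up to 0.0196% in mouse 595. The same limit is 0.00320% to 0.00700% in the other EAE mice and 0.00315% to 0.00474% in naïve mice. The lowest ASV count above 0 was 10 in mouse 595, 55 in naïve mouse 559, 84 in naïve mouse 561 and 2 to 9 in the others. Over the 12 samples, the 5th percentile of ASV counts above 0 was 59. A count of 0 can thus stand for a larger share than these limits, most of all in a taxon split into several ASVs.

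**Figure D1:**
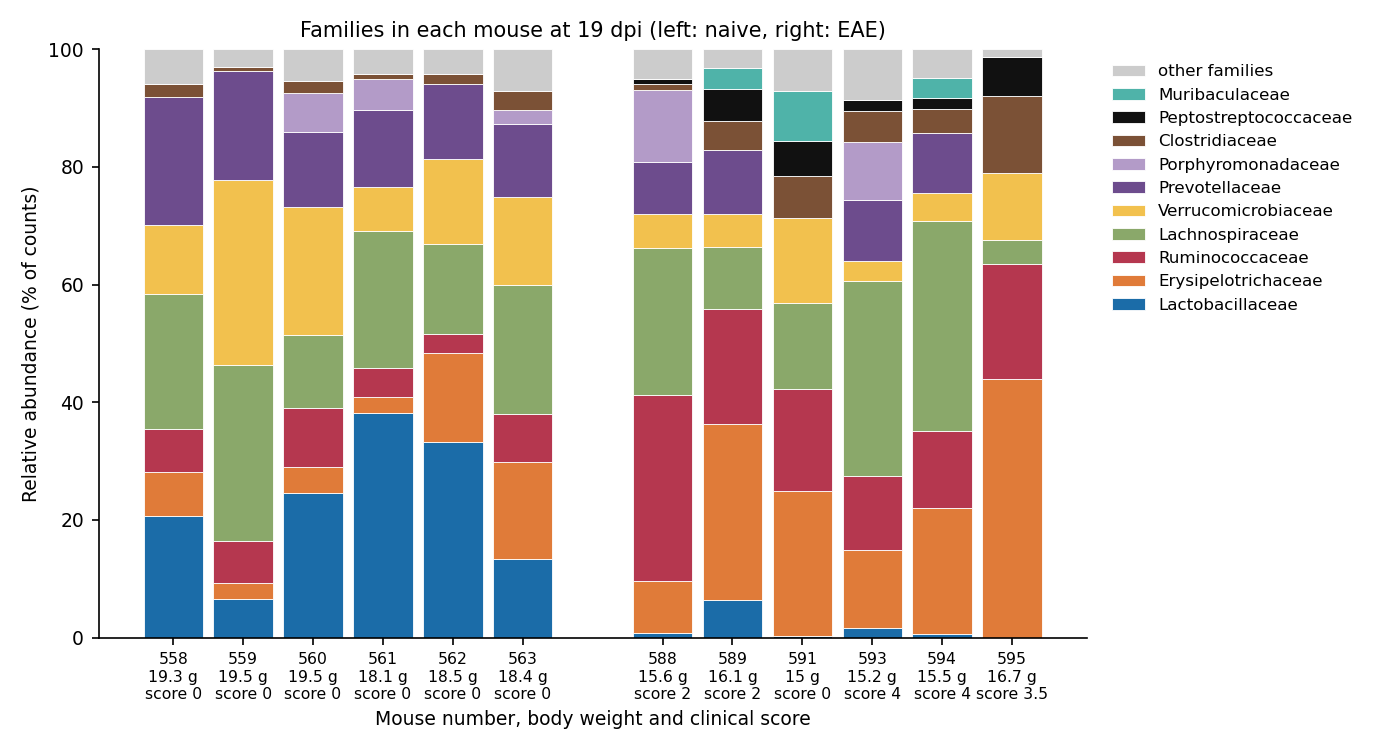
Relative abundance (% of counts, y axis) of 10 named families and of all others together in each naïve (left) and EAE (right) mouse at 19 dpi, with mouse number, body weight and clinical score below each bar. Lactobacillaceae (dark blue) made up 6.59% to 38.1% of each naïve mouse and 0% to 6.34% of each EAE mouse, and Peptostreptococcaceae (black) appears in EAE mice only.

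At the family rank, Lactobacillaceae and Prevotellaceae were lower in EAE mice, and Ruminococcaceae, Peptostreptococcaceae, Clostridiaceae and Erysipelotrichaceae were higher. These 6 of 15 tested families (40.0%) passed a two-sided exact permutation test of mean relative abundance, adjusted over the families by the Benjamini-Hochberg method, and 7 (46.7%) had an unadjusted p below 0.05. A family was tested when at least 3 of the 12 mice had counts of it. The groups did not overlap at all in 4 families (26.7%), which were Lactobacillaceae, Prevotellaceae, Ruminococcaceae and Peptostreptococcaceae. The call of Prevotellaceae rests on how its reads were named, as described further on. With 1 mouse left out at a time, Clostridiaceae no longer passed in 7 and Erysipelotrichaceae in 9 of 12 permutation tests, those without mouse 595 among them (adjusted p = 0.0595 and 0.0690). As centred log ratios, Ruminococcaceae, Clostridiaceae, Erysipelotrichaceae (adjusted p = 0.112 for each) and Prevotellaceae (adjusted p = 0.0974, permutation tests) no longer passed.

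Lactobacillaceae, which ferment sugars to lactic acid, showed the largest difference in mean relative abundance of all families. The family held 0.72%, 6.34%, 0.18%, 1.70%, 0.68% and 0% of counts in EAE mice 588, 589, 591, 593, 594 and 595. In naïve mice 558 to 563 it held 20.6%, 6.59%, 24.5%, 38.1%, 33.2% and 13.4%. EAE mouse 589 nearly met the lowest naïve mouse, 559, and the other 5 EAE mice were at or below 1.70%. The means were 1.60 ± 2.40% and 22.7 ± 11.8% (SD, n = 6 each), a ratio of 14.2 (exact permutation test, adjusted p = 0.00812). The edgeR quasi-likelihood test on counts gave a log2 fold change of -4.75 (SE 0.94, Benjamini-Hochberg adjusted p = 3.76e-05). Every count of the family in these mice carried the genus name Lactobacillus and the species name Lactobacillus johnsonii, and 99.9% of the genus counts of EAE mice came from a single 16S sequence. In the adjuvant group the family held 36.6% on average and was found in 6 of 6 mice.

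Ruminococcaceae, a family rich in fermenters of plant fibre, held 31.5%, 19.5%, 17.4%, 12.5%, 13.2% and 19.5% of counts in the EAE mice in the same order. Naïve mice held 7.38%, 7.27%, 10.0%, 4.94%, 3.08% and 8.18%. The lowest EAE mouse lay above the highest naïve mouse, with means of 18.9 ± 6.87% and 6.81 ± 2.45% (SD, n = 6 each; exact permutation test, adjusted p = 0.00812). The count test did not call the family with TMMwsp normalization factors (edgeR, log2 fold change 0.67, SE 0.57, Benjamini-Hochberg adjusted p = 0.556). It did with total counts only (edgeR, log2 fold change 1.48, Benjamini-Hochberg adjusted p = 0.0484) and in DESeq2 (1.17, adjusted p = 0.0133). These factors were 1.31 to 1.98 in EAE mice and 0.599 to 1.12 in naïve mice, and with them the median log2 fold change of all 45 tested genera was -0.83, against -0.15 with total counts only. A family that rose in relative abundance can therefore have a small log2 fold change, and a family that fell a more negative one.

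Peptostreptococcaceae were represented by the genus Romboutsia alone, anaerobes known from the small intestine. Romboutsia held 0.81%, 5.33%, 5.86%, 1.94%, 1.82% and 6.60% of counts in the EAE mice and had no count in any naïve mouse. All 7 of its ASVs were primer variants of a single 16S sequence with the species name Romboutsia timonensis. The mean in EAE mice was 3.73 ± 2.48% (SD, n = 6), against 0% in each naïve mouse (exact permutation test, adjusted p = 0.00812 as a family and 0.0244 as a genus). Counting error alone allows 0.00315% to 0.00474% in a naïve mouse, and a larger share can go unseen in ASV inference. No mouse of the adjuvant group had a count of it.

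Erysipelotrichaceae and Clostridiaceae had higher mean shares in EAE mice with some overlap. The edgeR test called neither (log2 fold change 0.46, SE 1.25, and 0.75, SE 1.74, Benjamini-Hochberg adjusted p = 0.891 for each). Erysipelotrichaceae held 23.7 ± 12.5% in EAE mice and 8.18 ± 6.19% in naïve mice (SD, n = 6 each; exact permutation test, adjusted p = 0.0487), and nearly all of it was Turicibacter, a spore former of the small intestine. Turicibacter held 8.38%, 29.9%, 24.7%, 13.2%, 21.3% and 43.9% in the EAE mice. The naïve mice held 7.03%, 2.13%, 4.50%, 2.80%, 15.2% and 16.1%, so that 4 EAE mice lay above all naïve mice. As a genus, Turicibacter did not pass after adjustment (exact permutation test, p = 0.0195, adjusted p = 0.0974). Clostridiaceae held 5.94 ± 4.01% and 1.76 ± 0.94% (SD, n = 6 each; exact permutation test, adjusted p = 0.0390). Its leading genus, Clostridium_sensu_stricto_1, with the species names celatum and disporicum, held 1.04%, 4.96%, 7.10%, 4.22%, 3.92% and 13.04% in EAE mice and between 0% and 2.85% in naïve mice.

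The families that did not pass the permutation test include the most even one. Lachnospiraceae, which hold many butyrate producers, made up 20.5 ± 12.8% in EAE mice and 21.0 ± 6.22% in naïve mice (SD, n = 6 each; exact permutation test, p = 0.948). The share ranged from 4.10% in mouse 595 to 35.6% in mouse 594, a wider range than the 12.4% to 29.8% of naïve mice. Verrucomicrobiaceae, represented by the mucin degrader Akkermansia, held 7.58 ± 4.36% against 17.0 ± 8.52% (SD, n = 6 each; exact permutation test, p = 0.0238, adjusted p = 0.0510). Muribaculaceae, common anaerobes of the mouse gut, held 3.58%, 8.64% and 3.32% in EAE mice 589, 591 and 594 and were not detected in the other EAE mice or any naïve mouse (exact permutation test, p = 0.182). Coriobacteriaceae, represented by Adlercreutzia, were found in 4 of 6 naïve mice at 0.72% to 1.15% and in no EAE mouse (exact permutation test, p = 0.0606). In the adjuvant group, Akkermansia, Adlercreutzia and Muribaculum, the genus behind the Muribaculaceae, were each found in 0 of 6 mice.

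The edgeR test called 4 of the 15 families (26.7%), with Peptostreptococcaceae and Muribaculaceae higher in EAE mice and Lactobacillaceae and Coriobacteriaceae lower. Only Lactobacillaceae had counts in both groups. The other three had no count in 1 of the groups, and each of the 3 tested families with no count in a group was called. Muribaculaceae (Benjamini-Hochberg adjusted p = 0.0258, edgeR) was called although 3 of 6 EAE mice lacked it. For such taxa the fitted fold change depends on the constant added to counts of 0 and is not given.

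**Figure D2:**
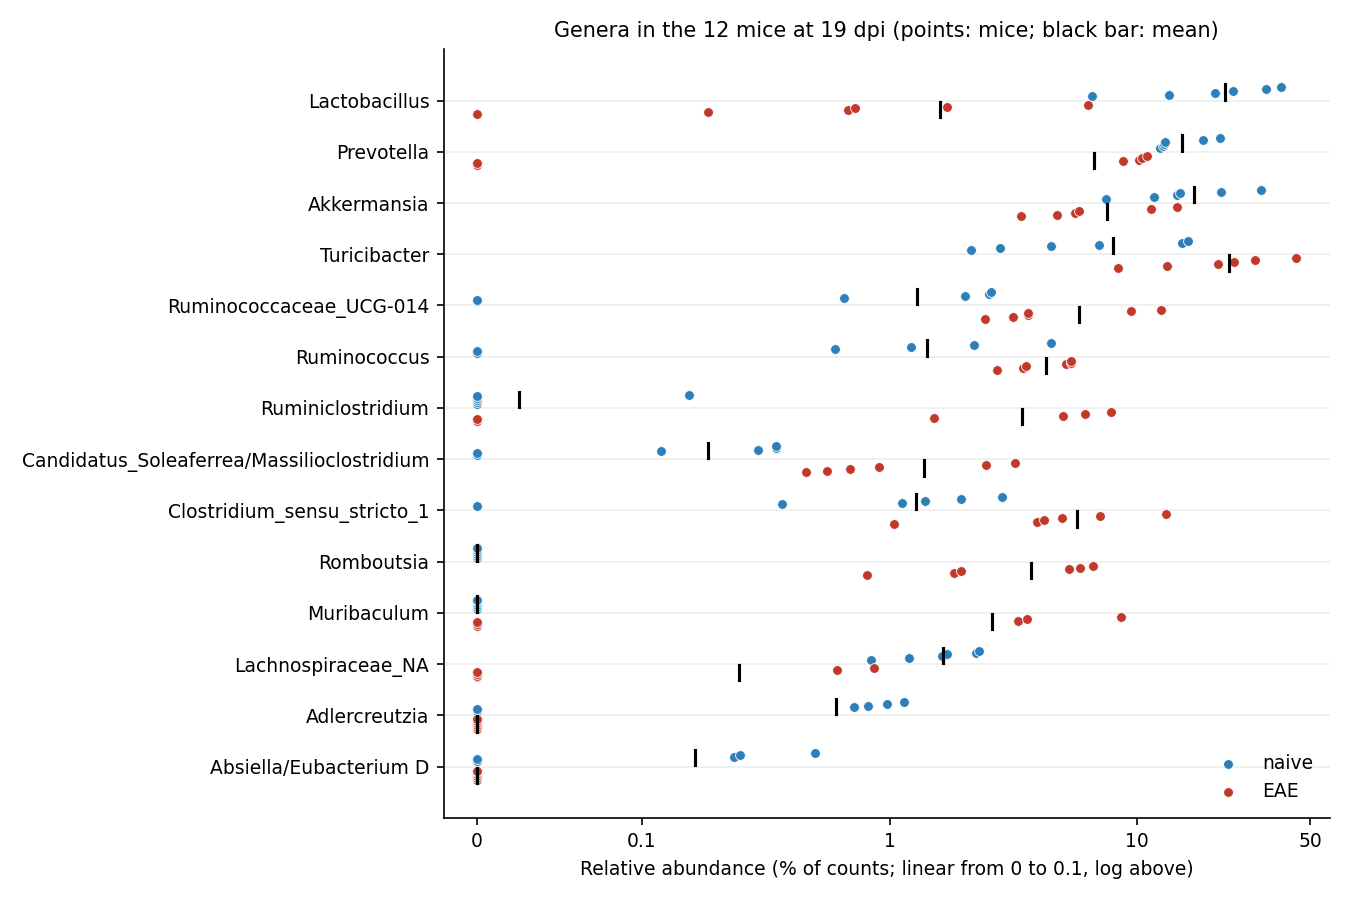
Relative abundance (% of counts, x axis, linear from 0 to 0.1 and logarithmic above) of 14 genera in the 12 mice at 19 dpi, with a point for each mouse and a black bar for the group mean. The EAE points (red) lie below all naïve points (blue) for Lactobacillus and Prevotella and above them for Candidatus_Soleaferrea/Massilioclostridium and Romboutsia, and overlap them in the other genera.

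Among 45 tested genera, 6 (13.3%) passed the exact permutation test after adjustment, with Lactobacillus, Prevotella and unnamed Lachnospiraceae lower in EAE mice and Romboutsia, Candidatus_Soleaferrea/Massilioclostridium and Ruminococcaceae_UCG-014 higher. Before adjustment 11 genera (24.4%) had a p-value below 0.05, of which 7 were higher in EAE mice and 4 lower. The groups did not overlap in 4 genera (8.89%). The edgeR test called 5 genera (11.1%), 2 higher (4.44%) and 3 lower (6.67%), of which Lactobacillus (log2 fold change -4.75, SE 1.07, Benjamini-Hochberg adjusted p = 0.00113) and Romboutsia (adjusted p = 0.00382) were called by both tests. The other three, Adlercreutzia, Absiella/Eubacterium D and Muribaculum, had no count in a group and were seen in 4, 3 and 3 mice of the other. Their adjusted p-values in edgeR were 0.0347, 0.0466 and 0.0456, and with 1 mouse left out at a time the calls were lost in 6, 11 and 12 of 12 fits. Without any one EAE mouse, edgeR called 2 genera, Lactobacillus and Romboutsia. In a fit of the 12 samples alone, Lactobacillus was no longer called (edgeR, log2 fold change -4.44, Benjamini-Hochberg adjusted p = 0.0787). The permutation test called 2 or fewer genera without naïve mouse 558, 559, 561, 562 or 563. Lactobacillus was lost in 4 of the 6 tests without 1 naïve mouse (adjusted p = 0.0649 to 0.0974), and Romboutsia in all 6 (0.0779 to 0.0974). In both genera the groups still did not overlap in these tests. Romboutsia had no count in any naïve mouse, so its difference stayed at 3.73 percentage points each time. Its losses follow from testing groups of unequal size and show no dependence on a naïve mouse. Lactobacillus was also lost as a centred log ratio (adjusted p = 0.0731, permutation test).

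The higher share of Ruminococcaceae was spread over several genera. Of its 12 tested genera, 6 had a higher mean in EAE mice and 6 a lower one. By an unadjusted permutation test 3 of the 12 were higher, against 7 of all 45 tested genera, and edgeR called none of the 12. Ruminococcaceae_UCG-014, a group with no cultured namesake, held 9.47%, 3.62%, 2.43%, 3.62%, 3.16% and 12.5% in EAE mice and 0% to 2.57% in naïve mice, with only mouse 591 inside the naïve range (exact permutation test, adjusted p = 0.0487). Candidatus_Soleaferrea/Massilioclostridium held 0.46% to 3.21% in EAE mice and 0% to 0.349% in naïve mice, without overlap (exact permutation test, adjusted p = 0.0244, n = 6 each). This call was lost without any one naïve mouse (adjusted p = 0.0974 to 0.146) and as a centred log ratio (adjusted p = 0.0649, permutation tests). Without a naïve mouse the groups still did not overlap, and the difference was 1.16 to 1.23 percentage points. Ruminococcus, whose members degrade cellulose and starch, held 4.29 ± 1.18% and 1.42 ± 1.72% (SD, n = 6 each; exact permutation test, p = 0.0130, adjusted p = 0.0731).

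Ruminiclostridium, cellulose-degrading clostridia, was uneven among EAE mice. It held 7.84%, 6.15%, 5.03% and 1.51% in mice 588, 589, 591 and 594, and mice 593 and 595 had no count. A single naïve mouse, 561, held 0.154% (exact permutation test, p = 0.0606, adjusted p = 0.210). The 3 highest mice included the one with a clinical score of 0. Coprococcus, a butyrate producer of the Lachnospiraceae, was higher only before adjustment, with 2.48 ± 2.14% in EAE mice and 0.372 ± 0.618% in naïve mice (SD, n = 6 each; exact permutation test, p = 0.0411, adjusted p = 0.168). Clostridium_sensu_stricto_1 likewise had an unadjusted p of 0.0108 and an adjusted p of 0.0696 in the exact permutation test.

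Within the Lachnospiraceae, 8 of 17 tested genera had a higher mean in EAE mice and 9 a lower one. Reads that the authors could not name below the family made up 0.866% and 0.614% in EAE mice 588 and 594 and were not detected in the other 4. In naïve mice they made up 0.845% to 2.30%, so that only mouse 588 reached into that range (exact permutation test, adjusted p = 0.0390). The other genera that the study names were rare at this day. Tyzzerella-Clostridium XlVb was found in 2 EAE and 5 naïve mice (0.225% and 0.480% on average), and Anaerotignum-Clostridium XlVb in 1 and 2 (0.0165% and 0.0847%). Mycoplasma was seen in a single EAE mouse and Marvinbryantia in a single naïve mouse, and neither could be tested.

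Grouped by what their members are known for, the genera did not move as blocks. Calls in these lists are those of edgeR after adjustment, which called 11.1% of all 45 tested genera, 4.44% higher and 6.67% lower. Of 4 tested small intestine residents, edgeR called Romboutsia higher and Lactobacillus lower, and the 4 together made up 34.6 ± 18.9% of EAE and 32.0 ± 13.6% of naïve samples (SD, n = 6 each). Turicibacter, Clostridium_sensu_stricto_1 and Romboutsia had higher means in EAE mice and Lactobacillus a lower one, and the median log2 ratio of mean percents in the list was 1.86, against -0.15 over all 45 tested genera (groups at 0 set to a floor of 3 counts). Of 7 tested butyrate producers, 3 had a higher and 4 a lower mean in EAE mice and none was called (median log2 ratio -0.59, summed share 7.66 ± 4.63% and 5.60 ± 2.51%). Of 4 tested plant fibre degraders, 2 had a higher and 2 a lower mean and none was called (median 0.50, summed share 14.7 ± 7.06% and 17.0 ± 3.86%). Unadjusted edgeR p-values were below 0.05 for 7 of the 45 genera in all.

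Lactobacillus was the tested member of the lactic acid bacteria and fell (log2 ratio -3.82). Of 3 tested Erysipelotrichaceae genera, Absiella/Eubacterium D was called lower by edgeR, with a median log2 ratio of 0.67. Of 3 tested Bacteroidales, Muribaculum was called higher (0.60). The single tested genera of the Mollicutes (Anaeroplasma, 1.67) and the mucin degraders (Akkermansia, -1.16) were not called. Neither was any of the 8 tested genera without a cultured namesake (-0.29). Of 10 tested genera that the study's results name, 2 were called higher and 1 lower (2.45), against 4.44% and 6.67% of all tested genera. That list was chosen on these samples and is no independent evidence of its direction.

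The deposited sequences still carry the amplification primers, which have 4 ambiguous base positions, so that a single 16S sequence can be split into many ASVs. Of the 2295 deposited ASVs, 2274 held both primers and reduced to 507 distinct sequences once the primers were cut off. In the 12 samples, 642 ASVs reduced to 198 distinct sequences. Of these ASVs, 104 were seen in at least 3 mice and were tested. The edgeR test called 46 ASVs (44.2%), of which 39 were lower (37.5% of the ASVs tested) and 7 higher (6.73%) in EAE mice. With 1 mouse left out, 37 to 45 were lower, and 2 were higher without naïve mouse 561, 562 or 563 and 12 without 558 or 560. The 39 lower ASVs came from 4 distinct sequences and carried 5 genus names. Lactobacillus accounted for 22 of them, Prevotella for 9, Akkermansia for 6, and Barnesiella and Flavonifractor for 1 each. The 7 higher ASVs came from 7 sequences, 1 each of Acutalibacter, Candidatus_Soleaferrea/Massilioclostridium, Clostridium_sensu_stricto_1, Coprococcus, Oscillibacter, Romboutsia and Ruminococcus. A count of lower and higher ASVs thus does not count bacteria.

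**Figure D3:**
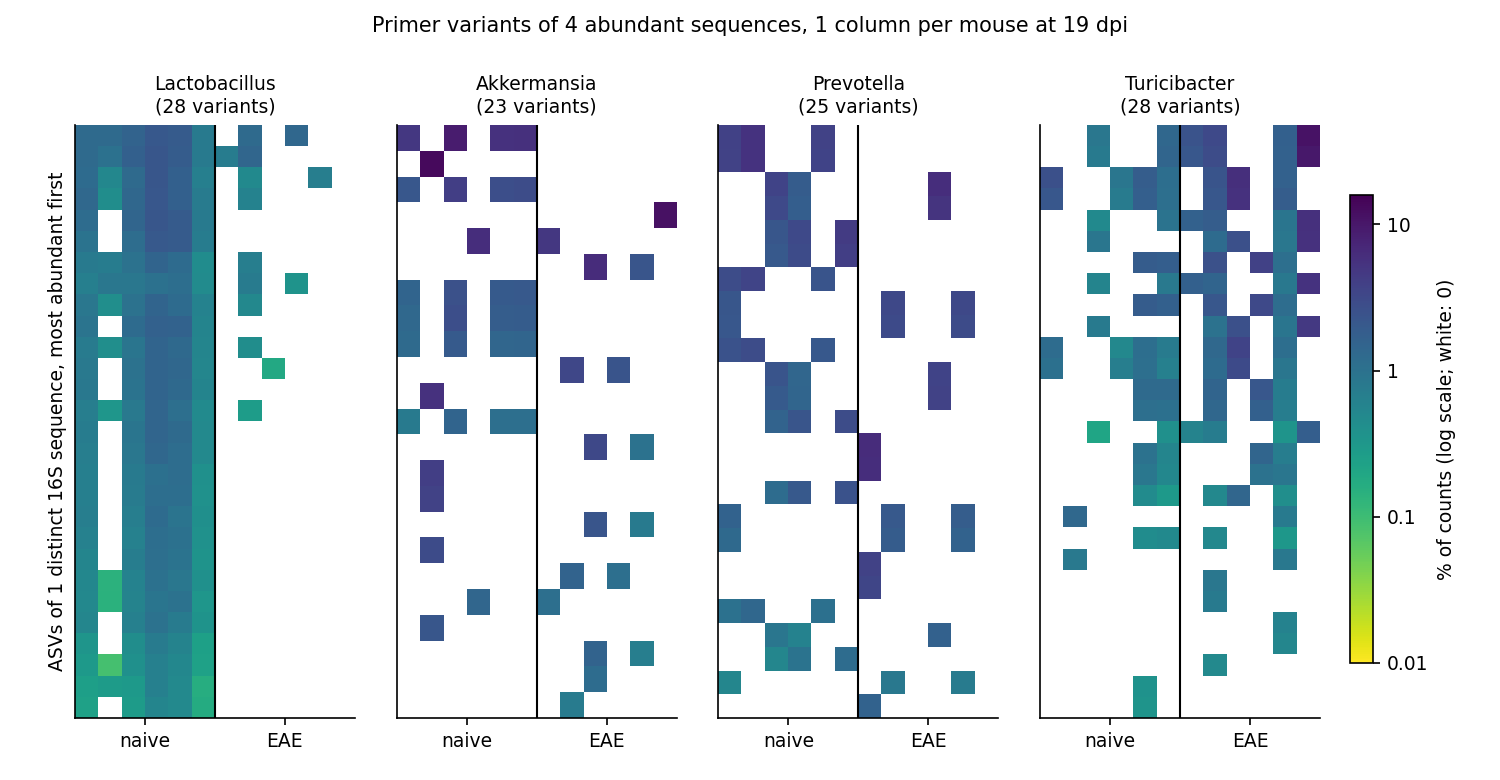
Each row is an ASV and each column a mouse (naïve left, EAE right of the black line), in 4 panels of ASVs that share a 16S sequence and differ only in primer bases; colour gives the share of counts on a log scale and white is 0. All 28 Lactobacillus variants occur in naïve mice and 10 in EAE mice, while Akkermansia shows 14 variants in naïve and 11 in EAE mice with 2 in both.

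Most variants of the leading Lactobacillus sequence had no count in EAE mice. The sequence as a whole held 1.60% of counts in EAE and 22.7% in naïve mice. How far this lower total alone leaves variants unseen was not tested. In naïve mice the median was 28 of 28 variants per mouse, with a low of 13, and in EAE mice the median was 1 and the highest was 9. The exact permutation test with adjustment called 5 of the 104 ASVs (4.81%; 26.9% had an unadjusted p below 0.05), all of them Lactobacillus variants and all lower in EAE mice. The leading Akkermansia sequence was present in all 12 mice, and 14 of its 23 variants were seen in naïve and 11 in EAE mice, with 2 in both. Only 6 variants were seen in at least 3 mice and tested, and all 6 had counts in naïve mice alone. As edgeR called each of the 42 tested ASVs with no count in a group, the 6 lower calls followed from the filter. The sequence as a whole was not called (edgeR on distinct sequences, Benjamini-Hochberg adjusted p = 0.918). The leading Turicibacter sequence had 28 variants, 26 in EAE and 23 in naïve mice with 21 in both, and none of its 19 tested variants was called.

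A Prevotella sequence also carried the name Barnesiella, a genus of another family, in some of its 25 variants. By the deposited names, Prevotellaceae held 8.75%, 10.9%, 0%, 10.4%, 10.2% and 0% in the EAE mice and 12.4% to 21.7% in naïve mice (exact permutation test, adjusted p = 0.00812). Barnesiella held 12.3% and 9.72% in EAE mice 588 and 593 and nothing in the other 4 EAE mice. With 1 name for each distinct sequence, a choice made after seeing the data, the EAE mean was 10.4 ± 9.22% with a range from 0% to 21.1%, and the naïve mean was 17.6 ± 3.22% with a range from 12.8% to 21.7% (SD, n = 6 each). The groups then overlapped and the call was lost (exact permutation test, p = 0.104, adjusted p = 0.162). Mice 591 and 595 lacked the sequence under either name. Such sequences with several genus names numbered 31 in the series and held 22.9% of the counts of the 12 samples.

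After merging primer variants, 67 of the 198 distinct sequences were seen in at least 3 mice. The permutation test called 3 of them (4.48%), and the same 3 showed no overlap (4.48%): Lactobacillus lower, and Romboutsia and an Acutalibacter sequence higher (adjusted p = 0.0483 for each, exact permutation test). This Acutalibacter sequence held 0.660% to 2.47% in each EAE mouse and had no count in naïve mice. A different Acutalibacter sequence was found in 3 naïve mice (0.566% on average) and in no EAE mouse. The genus itself held 1.48 ± 0.63% and 0.680 ± 1.02% (SD, n = 6 each) and did not pass its test (exact permutation test, p = 0.132). A Dorea sequence was seen in naïve mice only, with 0.788% to 2.30% in 5 of 6 naïve mice and no count in EAE mice (exact permutation test, p = 0.0152, adjusted p = 0.169), while the genus was still found in 4 EAE mice.

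The edgeR test called 16 distinct sequences (23.9%), 10 higher (14.9%) and 6 lower (8.96%) in EAE mice. Without EAE mouse 594, 10 were higher and 12 lower. Of these, 15 had no count in 1 of the groups, 8 were seen in 3 of the 12 mice, and all 15 tested sequences with no count in a group were called. Among ASVs, 42 of the 46 called had no count in a group. Without the filter on rare features, the test called 443 of 642 ASVs, including 368 of the 461 seen in a single mouse.

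**Figure D4:**
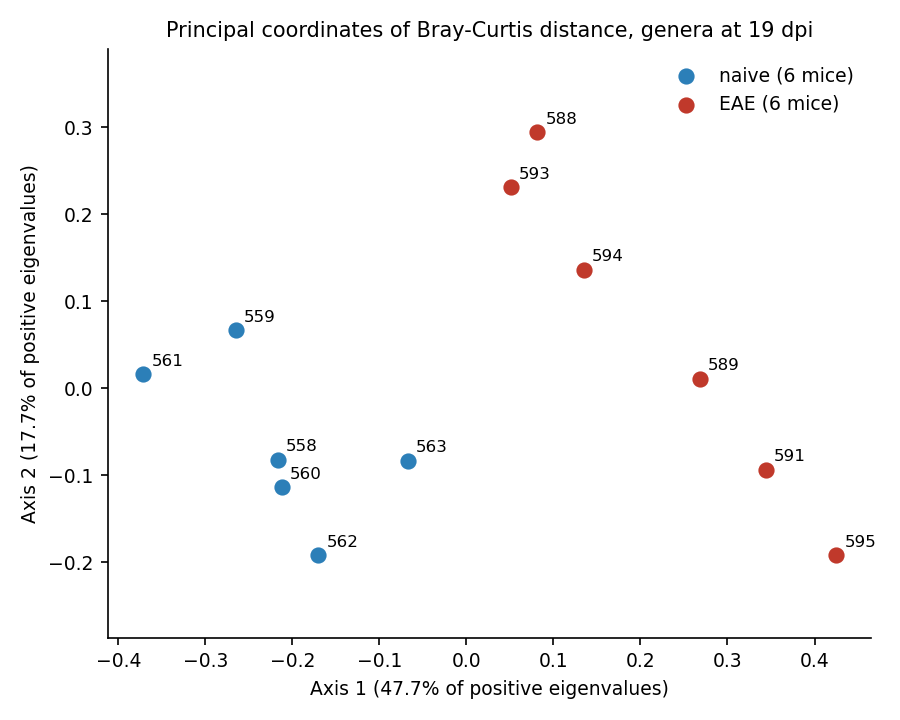
Principal coordinates of Bray-Curtis distances between the 12 samples at the genus rank, with axis 1 (47.7% of positive eigenvalues) across and axis 2 (17.7%) up, and a point for each naïve (blue) and EAE (red) mouse. The groups separate on axis 1, with mouse 595 farthest to the EAE side and mice 588 and 593 highest on axis 2.

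As whole communities the groups were separate. At the genus rank the treatment accounted for 40.8% of the variation in Bray-Curtis distance (pseudo-F = 6.89 of the distances, exact permutation test, p = 0.00216, the smallest possible). The mean distance was 0.456 within EAE mice, 0.365 within naïve mice and 0.588 between the groups, and each of the 12 mice had its nearest neighbour in its own group. The share was 45.7% at the family rank, 37.6% for distinct sequences and 21.7% for ASVs, each with the same p (exact permutation test). With presence and absence alone (Jaccard distance) it was 20.9% at the genus rank. Mouse 595 was the farthest from naïve mice (mean distance 0.723) and mouse 593 the nearest (0.506).

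EAE mice differed among themselves in which taxa were high. Turicibacter, Romboutsia and Clostridium_sensu_stricto_1 were each lowest in mouse 588 and highest in mouse 595. Lachnospiraceae were highest in mice 593 and 594, which had the highest clinical score of 4, and lowest in mouse 595 with a score of 3.5. Mouse 588 held the most Ruminococcaceae, and mice 591 and 595 lacked Prevotella. No relation to weight or score was tested among 6 mice.

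Differences in diversity within samples did not pass the tests, and their direction depended on the primer variants. The Shannon index of ASVs was 3.94 ± 0.59 for EAE mice and 4.24 ± 0.22 for naïve ones, the inverse Simpson index was 47.2 ± 23.8 and 51.8 ± 13.5, and the number of ASVs was 79.3 ± 36.7 and 99.2 ± 17.8 (SD, n = 6 each; exact permutation tests, adjusted p = 0.435, 0.680 and 0.435). Mouse 594 had the highest Shannon index of all 12, 4.64, and mouse 595 the lowest, 2.88. With primer variants merged, the Shannon index was 2.88 ± 0.51 and 2.60 ± 0.25 and the inverse Simpson index was 10.6 ± 3.96 and 7.29 ± 1.98 (SD, n = 6 each; exact permutation tests, adjusted p = 0.403 and 0.305), higher in EAE mice. The number of distinct sequences was 44.8 ± 18.6 and 45.0 ± 8.58 (SD, n = 6 each).

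The share of reads with each base at the ambiguous primer positions was compared between the groups as well. At the ambiguous N of the forward primer, EAE mice had A in 51.7 ± 3.11% of reads against 46.1 ± 1.92%, C in 2.08 ± 0.42% against 3.47 ± 0.55% and G in 7.42 ± 2.32% against 11.6 ± 1.16% (SD, n = 6 each; exact permutation tests, adjusted p = 0.0346, 0.0260 and 0.0346 over 12 bases). No base passed without EAE mouse 588, 594 or 595, 1 did without any one of naïve mice 559 to 563, and 6 did without EAE mouse 591. With equal weight for each distinct sequence, no base differed (exact permutation tests, 0 of 12 with an unadjusted p below 0.05, lowest adjusted p 0.983). The parts of composition and amplification in the difference by reads were not tested.

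**Figure D5:**
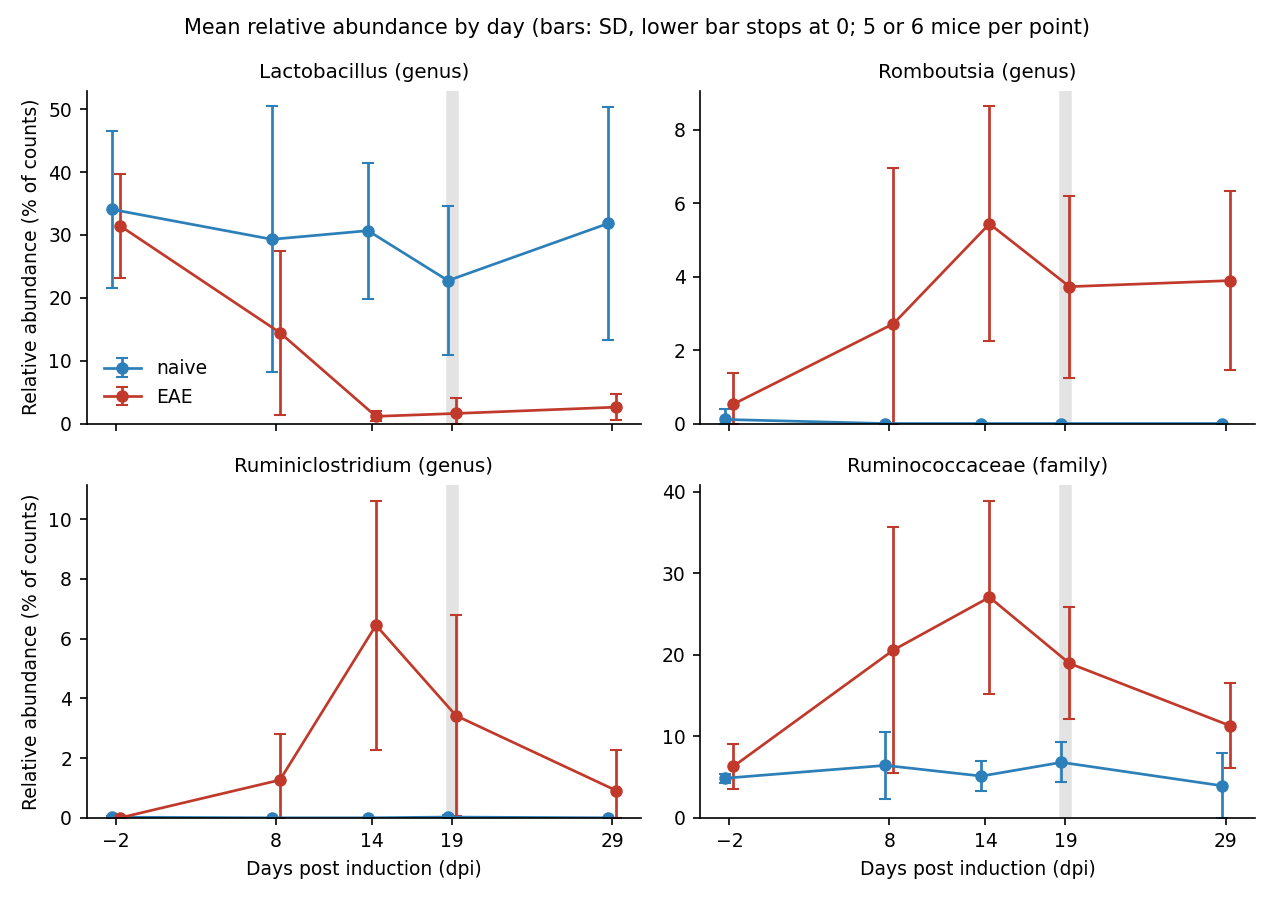
Mean relative abundance (% of counts, y axis) of 3 genera and a family by dpi (x axis) in naïve (blue) and EAE (red) mice, with SD as bars whose lower end stops at 0 and 19 dpi shaded. Before immunization Lactobacillus held 31.5% in EAE and 34.1% in naïve mice, and at 19 dpi 1.60% and 22.7%.

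The differences at 19 dpi were then set against the same difference at other days. The difference between EAE and naïve mice at 19 dpi differed from that at -2 dpi in 3 of 45 genera (6.67%), Lactobacillus (log2 difference -4.17, SE 1.34), Romboutsia and Ruminiclostridium (edgeR, Benjamini-Hochberg adjusted p = 0.0382, 0.0299 and 0.0299). With the mouse as a replicate block, edgeR called 0 genera, 4 had an unadjusted p below 0.05, and at the family rank Lactobacillaceae was still called and Peptostreptococcaceae was lost. This block links EAE mice to -2 dpi by the deposited subject numbers, because their mouse numbers differ at that day. With total counts only, Lactobacillus was not called. DESeq2 called 10 genera, these 3 among them. Lactobacillus held 31.5 ± 8.26% in EAE and 34.1 ± 12.4% in naïve mice before immunization (SD, n = 6 each). Romboutsia was found then in 2 of 6 EAE mice (0.528% on average) and 1 of 6 naïve mice (0.111%), and Ruminiclostridium in 0 of 6 and 1 of 6.

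Against 14 and 29 dpi few differences were called. At 14 dpi, Lactobacillus held 1.14 ± 0.81% (SD, n = 5) and Romboutsia 5.44 ± 3.20% (SD, n = 5) in EAE mice, and 2.61 ± 2.07% and 3.89 ± 2.43% (SD, n = 6) on day 29. The test against 14 dpi called 1 of 45 genera (2.22%), Absiella/Eubacterium D, and that against 29 dpi called 1 (2.22%), Ruminococcus-DTU089, both below 0.5% on average in every group of these days (edgeR, Benjamini-Hochberg adjusted p = 0.00695 and 0.0111). With the mouse as a replicate block, Absiella/Eubacterium D was lost against 14 dpi and Anaerostipes was called in its place, and Ruminococcus-DTU089 was still called against 29 dpi. Ruminococcaceae held 27.1%, 18.9% and 11.3% of EAE samples on days 14, 19 and 29 and 5.12%, 6.81% and 3.94% of naïve samples. Among families, edgeR called 0 of 15 (0.0%) against either day, with 1 unadjusted p below 0.05 against 14 dpi and 0 against 29 dpi, and DESeq2 called 1 and 0.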

How the data were processed

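Fecal DNA was amplified by the authors for 25 cycles over regions V3 and V4 of the bacterial 16S rRNA gene and sequenced on the Illumina MiSeq platform. The authors inferred ASVs with DADA2, removed chimeras and named taxa by hand from several reference databases. The deposited values are read counts for each ASV, neither rarefied nor scaled, and the sequences still hold the primers. Clinical scores and body weights in grams (other measured values) were deposited for each mouse and did not differ from the labels. PCR reads without molecular identifiers are not independent molecules, so floors cover counting error only.

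ASV counts were summed by the deposited family and genus names, and by distinct sequence after removal of both primers, and were divided by each sample's total to give relative abundance in percent. A sample of the adjuvant group with a total of 0 was left out, and water controls were not analysed here. Means of 6 against 6 mice were compared by two-sided exact permutation tests over all splits, with Benjamini-Hochberg adjustment and a threshold of 0.05. Counts were tested with edgeR 4.0.16 in R 4.3.3 (quasi-likelihood, robust, 1 fit of the 15 combinations of treatment and day, TMMwsp factors from genus counts, constant dispersion), on features with counts in at least 3 of the 12 mice. DESeq2 1.42.0 was an alternative. Other steps used Python 3.11.15, numpy 2.4.6, pandas 2.3.3, SciPy 1.17.1 and matplotlib 3.10.9. The tests were tried on simulated data.

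The text names families that edgeR called and the 8 most abundant ones, genera that edgeR called or that the study's results name, and at most 3 called sequences or ASVs per direction in an abundant family. Taxa outside this rule that passed a permutation test, and Dorea, Turicibacter, Akkermansia, Barnesiella, Acutalibacter and Ruminococcus-DTU089, were named after their values were seen. Genus lists were those of lactic acid bacteria, small intestine residents, butyrate producers, plant fibre degraders, Erysipelotrichaceae, Mollicutes, Bacteroidales, mucin degraders, genera named by the study and genera without a cultured namesake. The comparison, its tests and its lists were chosen with earlier results of these data known.

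Mouse numbers pair samples across days in naïve mice. EAE mice carry other mouse numbers at -2 dpi than at 14, 19 and 29 dpi, and the deposited subject numbers were used to link them. Whether linked samples come from the same EAE animal was not tested. Deviations of mice paired in this way from their group means at 19 dpi and at -2, 14 and 29 dpi had median correlations across genera of 0.168, 0.0753 and 0.0211.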

Additional observations from a re-analysis of the deposited data

Results flagged for a closer look

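Of 51 sets of 6 values examined for a value far from the other 5, 10 held such a value. In 4 of these the other 5 values were 0, and the sets of Lactobacillaceae and Lactobacillus hold the same values, so that the rate of about 1 in 20 that chance gives does not apply. EAE mouse 588 held 31.5% Ruminococcaceae, and EAE mouse 589 held 6.34% Lactobacillaceae, all of it Lactobacillus (6.34%). In EAE mouse 593, Tyzzerella-Clostridium XlVb made up 1.10% and Mycoplasma 0.104%, and in EAE mouse 594, Anaerotignum-Clostridium XlVb made up 0.0992%. The Shannon index of naïve mouse 559 was 3.83, the lowest of its group, and its share of Coprococcus was 1.57%. Ruminiclostridium made up 0.154% of naïve mouse 561, and Marvinbryantia 0.750% of a single naïve mouse.

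The difference between EAE and naïve mice at 19 dpi differed from that at -2 dpi in 2 families and 3 genera (edgeR, Benjamini-Hochberg adjusted p). The log2 difference was -4.17 for Lactobacillaceae (adjusted p = 0.00988) and -4.17 for Lactobacillus (adjusted p = 0.0382). It was 12.08 for Peptostreptococcaceae (adjusted p = 0.0109), 12.08 for Romboutsia (adjusted p = 0.0299) and 14.10 for Ruminiclostridium (adjusted p = 0.0299). Against 14 dpi it was -19.56 for Absiella/Eubacterium D (adjusted p = 0.00695), and against 29 dpi -19.14 for Ruminococcus-DTU089 (adjusted p = 0.0111). With the mouse as a replicate block, the calls of Lactobacillaceae and Ruminococcus-DTU089 held and the other 5 were lost. All these values except those of Lactobacillaceae and Lactobacillus rest on groups with no count and depend on the constant added to 0.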

How the results depend on the processing

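No paired analysis was possible for the comparison at 19 dpi because EAE and naïve mice carry different numbers. In the tests between days, the mouse as a replicate block gave 0 genera against -2 dpi, in place of 3, ended the call of Peptostreptococcaceae, and called Anaerostipes in place of Absiella/Eubacterium D against 14 dpi. DESeq2 gave 10, 8 and 4 genera against -2, 14 and 29 dpi, in place of 3, 1 and 1.

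The edgeR counts of families, sequences and ASVs rose without the filter used. With features seen in at least 3 samples of the series, or with no filter, 8 and 8 families, 78 and 92 distinct sequences and 258 and 443 ASVs were called, against 4, 16 and 46, and 4 genera against 5. Merging primer variants turned 46 called ASVs into 16 sequences, and the exact permutation test called 5 ASVs and 3 sequences. With only the 12 samples in the fit, 1 genus was called in place of 5. Without 1 mouse at a time, edgeR called 4 families each time, 2 to 5 genera, 13 to 22 sequences and 39 to 52 ASVs.

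The permutation test called 4 to 7 families and 0 to 8 genera without 1 mouse. With a centred log ratio (pseudocount 0.5) it called 2 families and 2 genera. Ruminococcaceae, Clostridiaceae, Erysipelotrichaceae (adjusted p = 0.112 for each) and Prevotellaceae (adjusted p = 0.0974) were then lost. Clostridiaceae was lost in 7 and Erysipelotrichaceae in 9 of the 12 fits that leave out a mouse. With 1 name per distinct sequence, Erysipelotrichaceae (adjusted p = 0.0545) was also lost. Direction turned for families that were not called. Porphyromonadaceae, which is Barnesiella here, differed by -1.67 as a centred log ratio and between -0.49 and 2.10 percentage points, or between -0.89 and 0.80 in log2, without 1 mouse. Lachnospiraceae differed by 2.73 percentage points from pooled counts and between -3.44 and 2.86 without 1 mouse. Firmicutes rose in percent (78.5 against 64.5, adjusted p = 0.0216, exact permutation test) with a log2 fold change of -0.58 in edgeR.

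With primer variants merged, the Shannon index differed by 0.28 and the inverse Simpson index by 3.28. The inverse Simpson index of deposited ASVs differed by -4.62, and by -12.32 to 1.83 without 1 mouse, the highest without mouse 595. Primer bases past the test numbered 0 with equal weight per sequence and 0 to 6 without 1 mouse. The difference in weight change since 14 dpi ranged from -3.15 to -1.65 g without 1 mouse. The cause of these shifts was not tested, apart from the number of samples and features that each setting removes. A mouse with 15279 counts limits what its zeros show, and 6 mice a group limit the rest.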
